A study of Mus musculus with 28 samples.

Results

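Hepatic stellate cells are described here through 10 genes in whole mouse liver, taken from 49585 features of a gene count table: 2 genes of the quiescent state (Lrat and Reln), 2 that mark stellate cells and pericytes in either state (Des and Pdgfrb), and 6 that stellate cells raise when they are activated (Acta2, Tagln, Timp1, Lox, Tgfb1 and Mmp2). The genes were chosen by name, with earlier results of these data known. Each symbol matched 1 Ensembl identifier of the table, and all 10 were above the minimum mean count for testing, as were 21583 of the 49585 features. The study overexpressed SIRT6, a chromatin-bound deacylase of the sirtuin family, in C57BL/6JOlaHsd mice and sequenced liver RNA from 4 groups of 7 libraries, namely WT and SIRT6-tg males and WT and SIRT6-tg females. All groups were 5 to 7 months old, were fed standard chow and were flash frozen after a short fast. The SIRT6-tg mice of both sexes came from 1 whole-body transgenic line, so that every liver cell type could carry the transgene, and the WT mice were their littermates. The labels number the libraries 1 to 7 within each group and name no pool or batch, and p-values measure the spread between these libraries.

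The libraries held between 18758863 and 35393069 counted reads. Sirt6, the overexpressed gene, lay at 198 to 358 CPM (a read count scaled to the library's TMM-adjusted size) in male SIRT6-tg livers, at 16.4 to 50.2 CPM in female SIRT6-tg livers, and at 1.69 to 6.22 CPM in the 14 WT livers. The transgene's level therefore differed between the sexes, by a log2 difference of 3.29 ± 0.35 (standard error, SE) between the male and the female genotype effect (adjusted p = 6.96e-06, edgeR quasi-likelihood test). WT library 1 of the females stood apart with 6.22 CPM of Sirt6, against at most 3.23 CPM in the other WT libraries, and it also held the highest Acta2, Tagln, Timp1 and Mmp2 of its group. The tissue label was checked with 15 hepatocyte genes (albumin, apolipoproteins, fibrinogen chains and others), whose sum lay between 128000 and 243900 CPM in all 28 libraries.

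In the healthy liver, stellate cells lie between hepatocytes and the sinusoidal endothelium, store vitamin A as retinyl esters and act as pericytes. After injury they lose their vitamin A droplets and turn into contractile myofibroblasts, which lay down collagen and secrete enzymes and inhibitors that remodel it. TGF-beta and PDGF are the best known signals that drive this change, and inflammatory cells are a major source of both.

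The sequence before the transcription start is shown for the 2 quiescence genes and for the activation genes Acta2 and Timp1, because all 4 were lower in male SIRT6-tg than in male WT liver and because Acta2 is the classical target of serum response factor, which binds the CArG box. The windows hold the 250 bases before the RefSeq start, were taken from RefSeq (GRCm38.p6) and are written 5′ to 3′ on the strand of the gene. Capitals mark a GC box (GGGCGG, either strand) or a CArG box with 1 G or C allowed in its run of 6 A or T bases. The windows lie at chr3:82903975-82904224 (minus strand, Lrat), chr5:22344706-22344955 (minus strand, Reln), chr19:34255374-34255623 (minus strand, Acta2) and chrX:20869916-20870165 (plus strand, Timp1).
Lrat: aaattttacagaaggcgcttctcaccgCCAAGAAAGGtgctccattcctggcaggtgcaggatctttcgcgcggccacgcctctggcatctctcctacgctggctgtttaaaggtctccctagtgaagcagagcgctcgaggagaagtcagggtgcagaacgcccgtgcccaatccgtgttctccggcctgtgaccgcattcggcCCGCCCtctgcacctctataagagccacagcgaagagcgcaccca
Reln: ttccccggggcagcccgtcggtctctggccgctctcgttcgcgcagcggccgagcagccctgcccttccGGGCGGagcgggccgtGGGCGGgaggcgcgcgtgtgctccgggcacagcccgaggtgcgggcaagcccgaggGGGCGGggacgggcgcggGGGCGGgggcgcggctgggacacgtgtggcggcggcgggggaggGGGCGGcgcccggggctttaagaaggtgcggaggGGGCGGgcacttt
Acta2: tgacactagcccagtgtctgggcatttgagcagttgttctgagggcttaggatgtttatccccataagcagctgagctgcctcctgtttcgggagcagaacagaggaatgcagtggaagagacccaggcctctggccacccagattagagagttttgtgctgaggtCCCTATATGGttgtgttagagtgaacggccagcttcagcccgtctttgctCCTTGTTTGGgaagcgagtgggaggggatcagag
Timp1: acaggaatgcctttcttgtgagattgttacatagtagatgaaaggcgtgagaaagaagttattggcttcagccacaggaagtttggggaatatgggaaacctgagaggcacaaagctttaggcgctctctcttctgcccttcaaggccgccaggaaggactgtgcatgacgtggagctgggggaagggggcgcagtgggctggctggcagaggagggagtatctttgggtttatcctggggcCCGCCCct

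The Acta2 window held 2 relaxed CArG boxes, at positions -84 to -75 and -34 to -25 before the RefSeq start, and the Lrat window held 1, at -223 to -214. By the Gencode coordinates the Acta2 gene begins at 34255590 on the minus strand. Most of its window, with both boxes, therefore lies inside the Gencode gene. The strict CArG box was in none of the 6 windows read (Lrat, Reln, Des, Acta2, Timp1 and Tgfb1). Of all 32851 windows of the same length, 1.47% held a strict and 7.24% a relaxed CArG box, the relaxed form having been added after the strict one gave no match. The Reln window held 6 GC boxes and no CArG box of either form. GC boxes occurred in 5 of the 6 windows, all but that of Acta2, against 32.7% of all windows. None of the 6 windows held an AP-1 site (TGANTCA, both strands), which 6.75% of all windows did. These matches describe letters, and binding was not measured.

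Levels compared per length are given as CPM per kilobase of merged exons (RPKM). In male WT liver, Lrat was the highest of the 10 genes at 5.64 ± 1.30 RPKM (SD, n = 7), followed by Acta2 (3.38 ± 2.48), Tgfb1 (3.03 ± 0.73), Reln (2.57 ± 0.39), Des (2.38 ± 0.81) and Pdgfrb (2.05 ± 0.39). Timp1 (1.77 ± 1.54), Mmp2 (1.18 ± 0.27), Tagln (0.731 ± 0.583) and Lox (0.155 ± 0.078) lay below. No neighbours in this order differed by more than the larger of their SDs. With the longest transcript in place of merged exons, a setting chosen after seeing the data, Tgfb1 came to 7.03 and Reln to 5.21 RPKM in male WT, and Lrat stayed at 5.64, so the order at the top depends on the length used. In female WT liver the order was Lrat (6.17 ± 1.71), Reln (2.72 ± 0.43), Acta2 (2.20 ± 1.69), Tgfb1 (2.18 ± 0.42), Des (1.92 ± 0.48), Pdgfrb (1.69 ± 0.26), Mmp2 (0.757 ± 0.235), Timp1 (0.381 ± 0.292), Tagln (0.358 ± 0.211) and Lox (0.0818 ± 0.0300). Here the steps from Lrat to Reln, from Pdgfrb to Mmp2, from Mmp2 to Timp1 and from Tagln to Lox exceeded the larger SD. In male SIRT6-tg liver Lrat (3.52 ± 0.65 RPKM) and Reln (1.97 ± 0.24) led, Acta2 (1.02 ± 0.50) came sixth after Tgfb1, Des and Pdgfrb, and Timp1 (0.156 ± 0.095) and Lox (0.0304 ± 0.0178) were lowest. In female SIRT6-tg liver Lrat (6.47 ± 1.46 RPKM), Reln (2.85 ± 0.66) and Acta2 (2.72 ± 2.55) led, as in female WT, and Lox (0.0977 ± 0.0543) was again lowest.

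The first comparison asked what SIRT6 overexpression did to these genes in males. In male SIRT6-tg liver 9 of the 10 genes were lower than in male WT and none was higher (edgeR quasi-likelihood test, adjusted p under 0.05), with Tagln the gene that missed the threshold. Both quiescence genes, both identity genes and 5 of the 6 activation genes were among the 9. The count was 8 without male WT 3, which had the highest Acta2 of the male libraries, and 9 without male WT 6, which had the highest Tagln and Timp1. The median log2 fold change of the 10 genes was -0.79 (range -3.50 to -0.38), against 0.06 for all genes tested. The members were chosen with earlier results of these data known, so their count is only described beside the shares of all genes. Across the whole table, 11.0% of genes were lower and 9.68% higher in male SIRT6-tg liver. That balance rests on the scaling: higher genes made up 46.8% of the calls with TMM factors, 35.7% with RLE factors, 26.2% with upper-quartile factors and 4.89% with library size alone, which shifted the median of all genes to -0.22. In bulk liver RNA, fewer stellate cells and less RNA per stellate cell cannot be told apart.

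**Figure D1:**
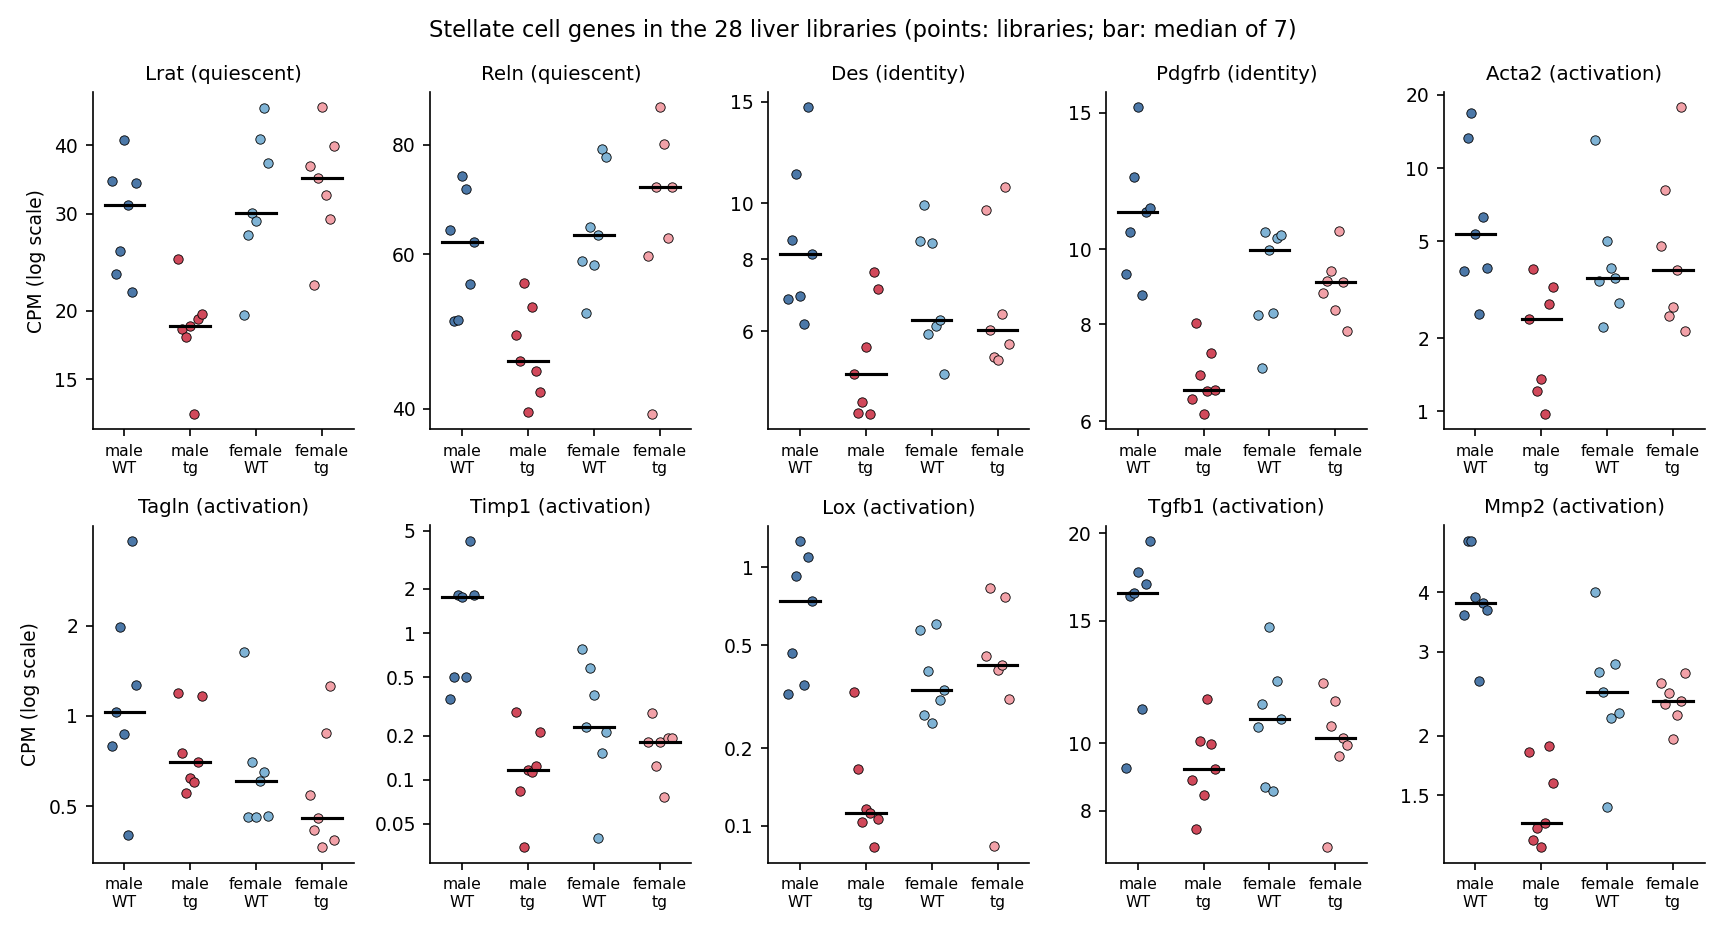
CPM (log axis, TMM scaled) of the 10 genes in each of the 28 libraries, with 1 point per library, groups on the horizontal axis and the median of 7 libraries as a bar. In males the WT and SIRT6-tg points are fully apart for Pdgfrb, Timp1 and Mmp2, while the female groups overlap for every gene.

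The quiescence genes fell modestly in males. Lrat encodes the acyltransferase that esterifies retinol for storage (ENSMUSG00000028003.6, chr3:82892579-82903973, minus strand). Lrat ranged from 21.7 to 40.9 CPM (median 31.2) in male WT and from 13.0 to 24.8 CPM (median 18.8) in male SIRT6-tg liver. In 6 of the 7 SIRT6-tg livers it lay below every WT liver. Lrat fell by 0.68 on the log2 scale (SE 0.17, adjusted p = 0.00456). Reln encodes reelin, a large secreted glycoprotein that stellate cells make in liver (ENSMUSG00000042453.14, chr5:21884454-22344702, minus strand). Reln ranged from 50.3 to 73.6 CPM (median 61.9) in male WT and from 39.6 to 55.6 CPM (median 45.3) in male SIRT6-tg liver, so the groups overlapped. It fell by 0.38 on the log2 scale (SE 0.13, adjusted p = 0.0379), the smallest change of the 9 and the one with the highest adjusted p. That p was 0.0503 without the filter on low counts and between 0.0563 and 0.0812 without male WT 4 or 5 or male SIRT6-tg 2, 4, 6 or 7. Reln shares exon bases with Gm10475 on the opposite strand.

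The identity genes fell by about as much as Lrat. Pdgfrb, the receptor through which PDGF drives stellate cell growth and migration (ENSMUSG00000024620.11), ranged from 8.73 to 15.2 CPM (median 11.2) in male WT and from 6.13 to 8.03 CPM (median 6.58) in male SIRT6-tg liver. The groups did not overlap, as was so, with the lower values in SIRT6-tg, for 4.37% of all genes tested. Pdgfrb fell by 0.72 on the log2 scale (SE 0.11, adjusted p = 2.11e-05). Des encodes desmin, an intermediate filament of stellate and muscle cells (ENSMUSG00000026208.9, chr1:75360329-75368579, plus strand). Des ranged from 6.17 to 14.7 CPM (median 8.17) in male WT and from 4.31 to 7.59 CPM (median 5.06) in male SIRT6-tg liver, and 5 of the 7 SIRT6-tg values were below all WT values. It fell by 0.70 (SE 0.20, adjusted p = 0.0116). The highest Des value belonged to male WT 6, and the log2 fold change without that library was -0.54 (adjusted p = 0.0386). Des shares exon bases with Gm15179 on the opposite strand, and the library kit does not mark strand.

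Larger differences came from the activation genes that remodel matrix. Timp1, the secreted inhibitor of matrix metalloproteinases (ENSMUSG00000001131.11, chrX:20870166-20874735, plus strand), ranged from 0.353 to 4.26 CPM (median 1.77) in male WT and from 0.0346 to 0.288 CPM (median 0.117) in male SIRT6-tg liver. All WT values were above all SIRT6-tg values, although the SIRT6-tg libraries held only 1 to 7 reads of Timp1 each. It was 11.3-fold lower (log2 fold change -3.50, SE 0.54, adjusted p = 1.54e-05), the widest difference of the 10 genes. Male WT 6 had the highest value, and without it the log2 fold change was -3.04 (adjusted p = 3.58e-05).

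Mmp2 encodes gelatinase A, which degrades basement membrane collagen (ENSMUSG00000031740.8, chr8:92827291-92853420, plus strand). Mmp2 ranged from 2.61 to 5.13 CPM (median 3.79) in male WT and from 1.17 to 1.90 CPM (median 1.31) in male SIRT6-tg liver. The groups were apart here too, with 29 to 46 reads per SIRT6-tg library. Mmp2 was 2.71-fold lower (log2 fold change -1.44, SE 0.18, adjusted p = 5.36e-07). Lox, the lysyl oxidase that starts the cross-linking of collagen and elastin (ENSMUSG00000024529.13), ranged from 0.324 to 1.27 CPM (median 0.743) in male WT and from 0.0825 to 0.329 CPM (median 0.112) in male SIRT6-tg liver. A single SIRT6-tg value, that of library 1, reached the WT range, and the SIRT6-tg libraries held 2 to 8 reads. Lox was 4.99-fold lower (log2 fold change -2.32, SE 0.40, adjusted p = 8.17e-05). Timp1 and Lox are thus measured near the detection limit in male SIRT6-tg liver, where counting error is large. Lox shares exon bases with AC161119.1 on the opposite strand.

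Tgfb1, the ligand of the pathway named above (ENSMUSG00000002603.15, chr7:25687002-25705077, plus strand), ranged from 9.22 to 19.5 CPM (median 16.4) in male WT and from 7.54 to 11.6 CPM (median 9.18) in male SIRT6-tg liver. All SIRT6-tg values were below the WT median, and WT libraries 1 and 5 lay inside the SIRT6-tg range. Tgfb1 fell by 0.71 on the log2 scale (SE 0.15, adjusted p = 0.000654), which is the size seen for Lrat, Des and Pdgfrb and not that of Timp1 or Lox.

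The contractile genes varied widely among the male WT livers, with a coefficient of variation of 73.5% for Acta2 and 79.7% for Tagln, as did Timp1 (86.6%). Acta2 encodes alpha smooth muscle actin, the standard protein marker of an activated stellate cell (ENSMUSG00000035783.8, chr19:34241090-34255590, minus strand). Acta2 ranged from 2.51 to 16.9 CPM (median 5.37) in male WT and from 0.974 to 3.83 CPM (median 2.38) in male SIRT6-tg liver. WT libraries 2 (13.3 CPM) and 3 (16.9 CPM) were far above the other 5 WT libraries, whose highest value was 6.28 CPM, and the ranges overlapped. Acta2 was 3.34-fold lower (log2 fold change -1.74, SE 0.52, adjusted p = 0.0174), and the adjusted p was 0.052 without male WT 3. That library also had the highest summed level of an adipocyte list of all 28 (45.95 CPM). Next came female WT 1 (39.05 CPM) and male WT 6 (27.27 CPM). The lowest male WT library had 8.505 CPM, and male SIRT6-tg libraries had up to 25.6 CPM. The part of male WT 3 in the Acta2 result was not tested. Acta2 is similar in coding sequence to the other muscle actin genes Actg2, Actc1 and Acta1, and only uniquely mapped reads were counted. Reads from stretches that these genes share could be dropped as ambiguous, and how many were dropped was not checked.

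Tagln encodes transgelin, an actin-binding protein of smooth muscle and myofibroblasts (ENSMUSG00000032085.5, chr9:45929619-45936058, minus strand). Tagln ranged from 0.402 to 3.83 CPM (median 1.03) in male WT and from 0.553 to 1.19 CPM (median 0.702) in male SIRT6-tg liver. The lowest value of both groups was that of a WT library, number 5, and the highest that of WT library 6. Its log2 fold change of -0.87 (SE 0.37) did not pass the test (adjusted p = 0.0973). Without male WT 6 it was -0.44 (adjusted p = 0.378), and without male WT 5 it was -1.02 (adjusted p = 0.0418). The exons of Tagln overlap those of Pcsk7 and Gm48529 on the opposite strand, so reads from the shared bases cannot be told apart in this library type.

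In females the second comparison addressed the same genes at the lower transgene level. None of the 10 genes was called in female SIRT6-tg against female WT liver, and none had an unadjusted p under 0.05 by edgeR, where 1212 of 21583 genes did. DESeq2 also called 0 of the 10. The whole table had 0.0232% of genes higher and 0.00463% lower, a total of 6 genes, so there was little for the members to be read against. The 10 log2 fold changes ran from -0.92 for Timp1 to 0.30 for Acta2 with a median of -0.04, and 4 of the 10 (Lrat, Reln, Acta2 and Lox) were above 0.

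The female groups overlapped for every member. Lrat ranged from 19.6 to 46.7 CPM (median 30.1) in female WT and from 22.3 to 46.9 CPM (median 34.8) in female SIRT6-tg liver. Reln ranged from 51.5 to 79.0 CPM (median 63.2) in female WT and from 39.4 to 88.3 CPM (median 71.5) in female SIRT6-tg liver. The female ranges of both quiescence genes overlapped almost fully. Pdgfrb ranged from 7.03 to 10.5 CPM in female WT and from 7.85 to 10.6 CPM in female SIRT6-tg liver, and Des from 5.05 to 9.95 CPM and from 5.35 to 10.7 CPM. The identity genes had log2 fold changes of -0.04 (SE 0.11) for Pdgfrb and -0.04 (SE 0.20) for Des.

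The activation genes of females spread widely in some libraries. Timp1 ranged from 0.0403 to 0.777 CPM (median 0.230) in female WT and from 0.0762 to 0.287 CPM (median 0.182) in female SIRT6-tg liver, or 1 to 19 and 2 to 9 reads. Its log2 fold change of -0.92 had an approximate 95% interval from -2.04 to 0.20, so these reads do not settle whether Timp1 changed in females. Mmp2 ranged from 1.42 to 4.01 CPM (median 2.48) in female WT and from 1.97 to 2.71 CPM (median 2.36) in female SIRT6-tg liver. The interval for Mmp2 was narrower, from -0.45 to 0.23, and the male value of -1.44 lay outside it. Tgfb1 ranged from 8.55 to 14.7 CPM in female WT and from 7.08 to 12.2 CPM in female SIRT6-tg liver (interval of the log2 fold change -0.40 to 0.17).

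In each female group the same library had the highest Acta2 and the highest Tagln, and Lox was low in all 14 female livers. Acta2 had a median of 3.52 CPM in female WT (2.23 to 13.0) and 3.81 CPM in female SIRT6-tg liver (2.13 to 17.8), with the highest values in WT library 1 and SIRT6-tg library 6. The interval of the log2 fold change was wide, from -0.67 to 1.28, and the sign turned to -0.26 without SIRT6-tg library 6. Tagln had a median of 0.605 CPM in female WT (0.459 to 1.64) and 0.458 CPM in female SIRT6-tg liver (0.364 to 1.25), with the highest values in the same libraries as Acta2. Lox had a median of 0.337 CPM in female WT (0.250 to 0.605) and 0.419 CPM in female SIRT6-tg liver (0.0833 to 0.830), or 2 to 26 reads.

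**Figure D2:**
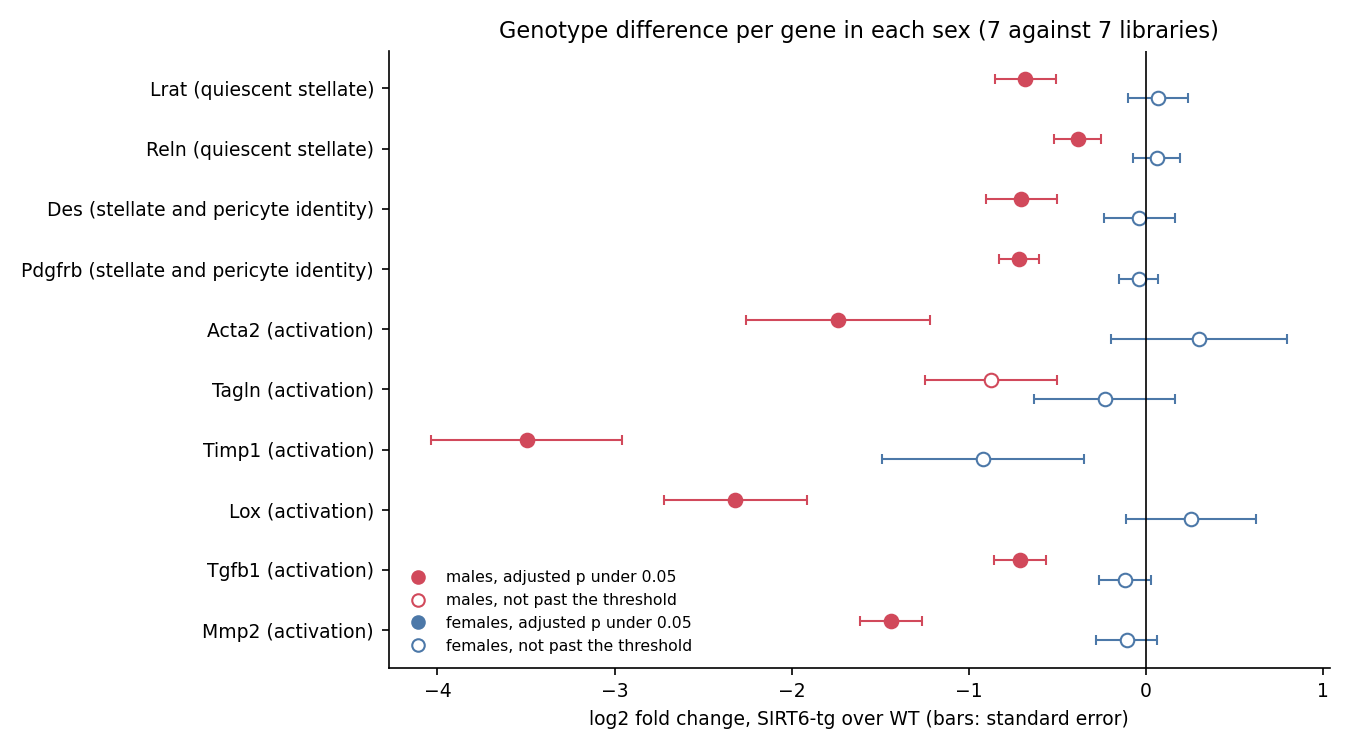
Log2 fold change of SIRT6-tg over WT for each gene in males (red) and females (blue), with bars for 1 standard error and filled circles for an adjusted p under 0.05. All 10 male values lie between -3.50 and -0.38, while the female values lie on both sides of 0 and none is filled.

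Whether the genotype effect differed between the sexes was tested directly as the difference of both effects. It was lower in males for 3 genes: Pdgfrb (-0.68, SE 0.16, adjusted p = 0.00957), Lox (-2.58, SE 0.55, adjusted p = 0.0047) and Mmp2 (-1.33, SE 0.25, adjusted p = 0.00167). No member had a positive difference, and over all genes tested 3.84% had a called negative and 1.20% a called positive difference. For 6 further genes (Lrat, Reln, Des, Acta2, Timp1 and Tgfb1) the unadjusted p was under 0.05 but the adjusted p ran from 0.0626 for Timp1 to 0.188 for Des. Over all 21583 genes tested, 4055 had an unadjusted p under 0.05 for this difference, in either direction. The count of members called was 7 with DESeq2 (Lrat, Acta2, Timp1 and Tgfb1 being added), 9 with library size alone, and 5 without female WT 1, the library with raised Sirt6. It was also 5 without male WT 1, male WT 2, male SIRT6-tg 1 or female SIRT6-tg 2. Sex cannot be told apart from transgene level in this difference, because every male SIRT6-tg library held more Sirt6 than any female SIRT6-tg library.

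The WT groups were set against each other to see where the male starting level lay. In male WT liver 3 of the 10 genes, all of the activation group, were higher than in female WT: Timp1 by 2.18 on the log2 scale (SE 0.47, adjusted p = 0.00178), Mmp2 by 0.64 (SE 0.17, adjusted p = 0.0103) and Tgfb1 by 0.48 (SE 0.15, adjusted p = 0.0266). None was lower, and over all genes tested 6.65% were higher and 5.71% lower in male WT. Lrat (-0.13, SE 0.17) and Reln (-0.08, SE 0.13) had small differences that did not pass the test. The ranges of the male and female WT groups overlapped for all 10 genes, including Timp1, of which 4 male WT livers lay above every female WT liver. The Tgfb1 call was lost when male WT 4 or 7 or female WT 3 or 5 was left out (adjusted p up to 0.0714), and the count of members called reached 6 without male WT 1 and 5 without male WT 5 or with DESeq2. Markers of other cells differed here too. All 10 T cell genes (median 1.28) and 3 of 12 macrophage genes (Itgax, Cx3cr1 and Marco) were higher in male WT, and 6 of 15 hepatocyte genes were lower (median -0.32). Their part in the Timp1, Mmp2 and Tgfb1 differences was not tested. This comparison, the male genotype comparison and the difference between sexes use the same male WT libraries and are not independent of one another.

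Activation and quiescence were then set beside each other within each liver, as the mean log2 CPM of the 6 activation genes minus that of Lrat and Reln. The difference was -3.96 ± 0.80 (SD, n = 7) in male WT and -4.87 ± 0.26 in male SIRT6-tg liver, so that the activation mean was lower relative to the quiescence mean in the transgenic males. It was -4.89 ± 0.64 in female WT and -5.05 ± 0.64 in female SIRT6-tg liver. The male SIRT6-tg values (-5.35 to -4.56) overlapped the male WT values (-5.03 to -2.95) only through WT libraries 1 (-4.84) and 5 (-5.03). Male SIRT6-tg and female WT livers had nearly the same mean on this measure, but they reached it at different levels. The activation mean was 0.01 ± 0.31 and the quiescence mean 4.88 ± 0.14 in male SIRT6-tg liver, and 0.61 ± 0.41 and 5.50 ± 0.30 in female WT liver. The activation genes did not move alike in males. Fitted male log2 fold changes were -3.50 for Timp1, -2.32 for Lox, -1.74 for Acta2 and -1.44 for Mmp2. They were -0.87 for Tagln and -0.71 for Tgfb1, against -0.68 for Lrat and -0.38 for Reln. Timp1 and Lox, with 1 to 7 and 2 to 8 reads per male SIRT6-tg library, count fully in the activation mean. The difference without Timp1 and Lox was not computed. All these differences are descriptions of the chosen genes, without a test.

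**Figure D3:**
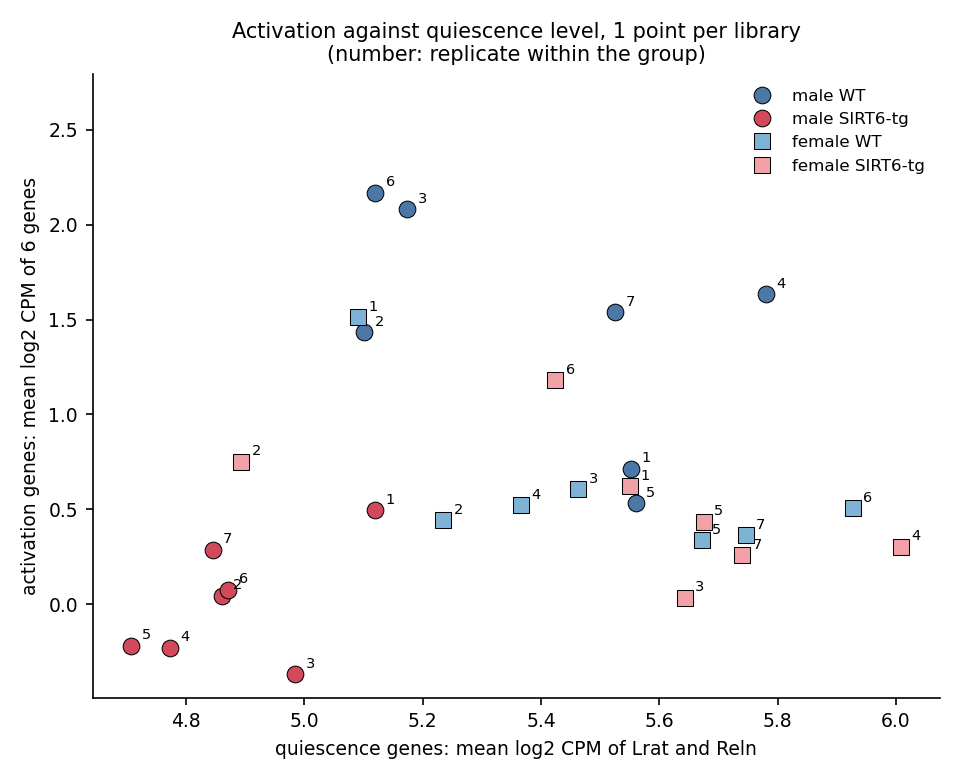
Mean log2 CPM of the 6 activation genes against the mean of Lrat and Reln, with 1 point per library labelled by its replicate number and coloured by group. Male SIRT6-tg livers take the lower left corner, and male WT 2, 3 and 6 and female WT 1 combine an activation mean of at least 1.435 with a quiescence mean of at most 5.17.

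Among individual livers, Lrat and Reln varied together in 3 of the 4 groups. Pearson's r between their log2 CPM was 0.79 over the 28 libraries and 0.61 after the group means were removed, as a description of libraries that share group, depth and cell mix. Within the groups r was 0.84 in male WT, 0.70 in female WT and 0.85 in female SIRT6-tg, but -0.33 in male SIRT6-tg liver (7 libraries each). With group means removed, Acta2 ran opposite to both, with r of -0.57 against Reln and -0.43 against Lrat. The sign against Reln was negative within each group (-0.84 to -0.35), while that against Lrat was negative in 3 groups (-0.68 to -0.58) and positive in male SIRT6-tg liver (0.59). The examples are female SIRT6-tg 2 (Lrat 22.3, Reln 39.4 and Acta2 8.14 CPM), male WT 3 (25.7, 50.5 and 16.9 CPM) and male WT 2 (23.3, 50.3 and 13.3 CPM), which were picked after the values were seen and have Lrat and Reln in the lower part of their group. Des had r of 0.60 against Acta2, 0.65 against Tagln, -0.53 against Reln and -0.40 against Lrat after group means were removed. Within the groups, r of Des against Tagln ran from 0.17 to 0.97, and that against Lrat was positive in male SIRT6-tg liver (0.37). Genes outside the members lay closer to Des with group means removed, led by Erp29 (0.93) and Eif3d (0.92). Pdgfrb was nearly unrelated to Mmp2 on that measure (r = -0.00197, with 0.49 in male WT and -0.37 to -0.02 in the other groups), although both lay below every male WT liver in all 7 male SIRT6-tg livers.

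The genes most like each member over the 28 libraries, among 12261 compared on log2 CPM, differed between the roles. Lrat and Reln were both closest to Prelp (r = 0.84 and 0.86), a matrix proteoglycan, and to Pdgfra (0.81 and 0.86), and then to S1pr3 (0.81) and Nid1 (0.86) respectively. Mmp2 was closest to Col1a2 (0.88), Col3a1 (0.86) and Fstl1 (0.86), and Acta2 to Dpt (0.90), Gsn (0.87) and Myl9 (0.85). The 3 closest to Lox were Gpm6b (0.85), Emp1 (0.84) and Lum (0.83), and the 3 closest to Pdgfrb were Abr (0.87), Pfkp (0.87) and Col6a3 (0.86). Timp1 was closest to Amz1 (0.92), H2-Eb1 (0.89), a class II MHC chain of antigen-presenting cells, and Tbc1d10c (0.89), and Tgfb1 to Cotl1 (0.91), Arhgap25 (0.90) and Arhgdib (0.89), genes best known from blood cells. Des was closest to Anxa2, Crip1 and Gngt2 (0.88, 0.88 and 0.86) and Tagln to Prss23, Pf4 and Fabp4 (0.80, 0.77 and 0.77). After the group means were removed, the closest genes were Colec10 for Lrat (0.74) and Reln (0.83), Myl9 for Acta2 (0.87), Amz1 for Timp1 (0.79), Cotl1 for Tgfb1 (0.84), Gpm6b for Lox (0.74), Heyl for Pdgfrb (0.70), Serpine2 for Mmp2 (0.62), Erp29 for Des (0.93) and Tmem159 for Tagln (0.87). All these values were the highest of many and are given as descriptions.

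Other quiescence genes of the stellate cell lay on both sides of 0 in males, with more of them below it. Of 15 further quiescence genes 4 were lower and 1 was higher, with a median log2 fold change of -0.32. Over all genes tested, 11.0% were lower and 9.68% higher in males, shares that also apply to the lists below. The lower genes included Cygb (-0.87, SE 0.19, adjusted p = 0.00096), the globin of stellate cells, and Dcn (-0.46, SE 0.15, adjusted p = 0.0234), which encodes the matrix proteoglycan decorin. Pparg, a nuclear receptor that holds stellate cells quiescent and that hepatocytes and macrophages also express, rose by 0.65 (SE 0.16, adjusted p = 0.00309), and its genotype effect differed between the sexes (0.78, adjusted p = 0.0324). Rgs5 (-0.04, SE 0.14), Colec11 (-0.11, SE 0.14) and Vipr1 (0.21, SE 0.12), also in that list, did not pass the test. Below 0 but not past the test were also Gfap (-0.68, SE 0.28), Hgf (-0.67, SE 0.29), Tcf21 (-0.44, SE 0.16), Hand2 (-0.32, SE 0.13) and Lhx2 (-0.24, SE 0.12). Ecm1 (0.23, SE 0.11) and Cxcl12 (0.12, SE 0.13) lay above 0 and did not pass either. Rgs5, Colec11 and Vipr1, and the genes named below as not having passed in the activation, matrix and TGF-beta lists, were picked after their values were seen.

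Of 15 further activation and matrix genes 10 were lower in males and none higher, with a median of -1.51. Col1a2 (-1.92, SE 0.18, adjusted p = 1.34e-08), Col1a1 (-2.99, SE 0.28, adjusted p = 1.67e-08) and Col3a1 (-2.16, SE 0.20, adjusted p = 1.87e-08), chains of the fibrillar collagens, had the lowest adjusted p. Their genotype effects also differed between the sexes (adjusted p = 0.000142 for each). Ccn1 (-0.03, SE 0.28) and Ccn2 (-0.12, SE 0.42), early targets of YAP and TGF-beta, and Lgals1 (0.09, SE 0.25) did not pass the test. Postn, a matrix protein, had a log2 fold change of -0.50 (SE 0.32) that did not pass either, and was lower in male WT than in female WT (-1.51, adjusted p = 0.00174), opposite to Timp1, Mmp2 and Tgfb1.

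Around Tgfb1, 10 of 24 pathway genes were lower in males, none was higher, and the median was -0.33. Thbs1 (-2.08, SE 0.24, adjusted p = 2.48e-07), which can activate latent TGF-beta, and the latent TGF-beta binding proteins Ltbp2 (-2.05, SE 0.24, adjusted p = 2.58e-07) and Ltbp1 (-0.999, SE 0.15, adjusted p = 6.86e-06) led. All 3 differed between the sexes in their genotype effect (adjusted p = 0.00586, 0.00024 and 0.00941). Ltbp3, Tgfb3, Itgb8, Skil, Tgfbr2 and Lrrc32 were also lower. The signal transducers Smad2 (0.10, SE 0.11), Smad3 (-0.01, SE 0.18) and Smad4 (0.15, SE 0.08) and the inhibitor Smad7 (0.32, SE 0.17) did not pass the test. Around Pdgfrb, 3 of 5 PDGF genes were lower: the receptor Pdgfra (-0.72, SE 0.13, adjusted p = 7.78e-05) and the ligands Pdgfb (-1.35, SE 0.24, adjusted p = 0.000116) and Pdgfc (-0.91, SE 0.18, adjusted p = 0.000391).

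Around Timp1 and Mmp2, 4 of 11 proteases and inhibitors tested were lower and 1 was higher in males (median -0.48). Mmp12, the macrophage elastase, fell by 4.94 (SE 0.52, adjusted p = 1.05e-07), Mmp13, the main rodent collagenase, by 3.62 (SE 0.49, adjusted p = 2.93e-06) and Timp2 by 0.84 (SE 0.12, adjusted p = 3e-06). Reck, a membrane inhibitor of metalloproteinases, rose by 0.56 (SE 0.16, adjusted p = 0.0131). Both enzymes and an inhibitor were thus among the lower genes. Around Lox, 3 of 4 family members were lower: Loxl2 (-1.24, SE 0.18, adjusted p = 5.97e-06), Loxl1 (-1.87, SE 0.31, adjusted p = 3.48e-05) and Loxl3 (-0.81, SE 0.15, adjusted p = 0.000113), each with a different effect in the sexes (adjusted p = 0.00588, 0.00277 and 0.00267).

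Around Lrat, retinoid genes split by direction: of 14 tested, 5 were higher and 4 lower in males. Over all genes tested, 9.68% were higher and 11.0% lower. The higher ones with the lowest adjusted p were Dhrs3 (0.42, SE 0.08, adjusted p = 0.000456), Aldh1a1 (0.51, SE 0.12, adjusted p = 0.00293) and Rdh10 (0.32, SE 0.08, adjusted p = 0.00647). The lower ones included Bco1 (-0.50, SE 0.14, adjusted p = 0.0116), which cleaves beta-carotene, Rarb (-0.60, SE 0.18, adjusted p = 0.0137), a retinoic acid receptor, and Aldh1a2 (-1.37, SE 0.43, adjusted p = 0.0224), whose genotype effect also differed between the sexes (adjusted p = 0.0486). Rbp4 and Dgat1, which hepatocytes also express, were the other 2 higher genes. Aldh1a1 lay at a mean of 1130 CPM in male WT liver, against 30.2 CPM for Lrat. The hepatocyte list had a median log2 fold change of 0.37 in males, and its part in the higher retinoid genes was not tested. No gene of any of these lists was called in females.

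**Figure D4:**
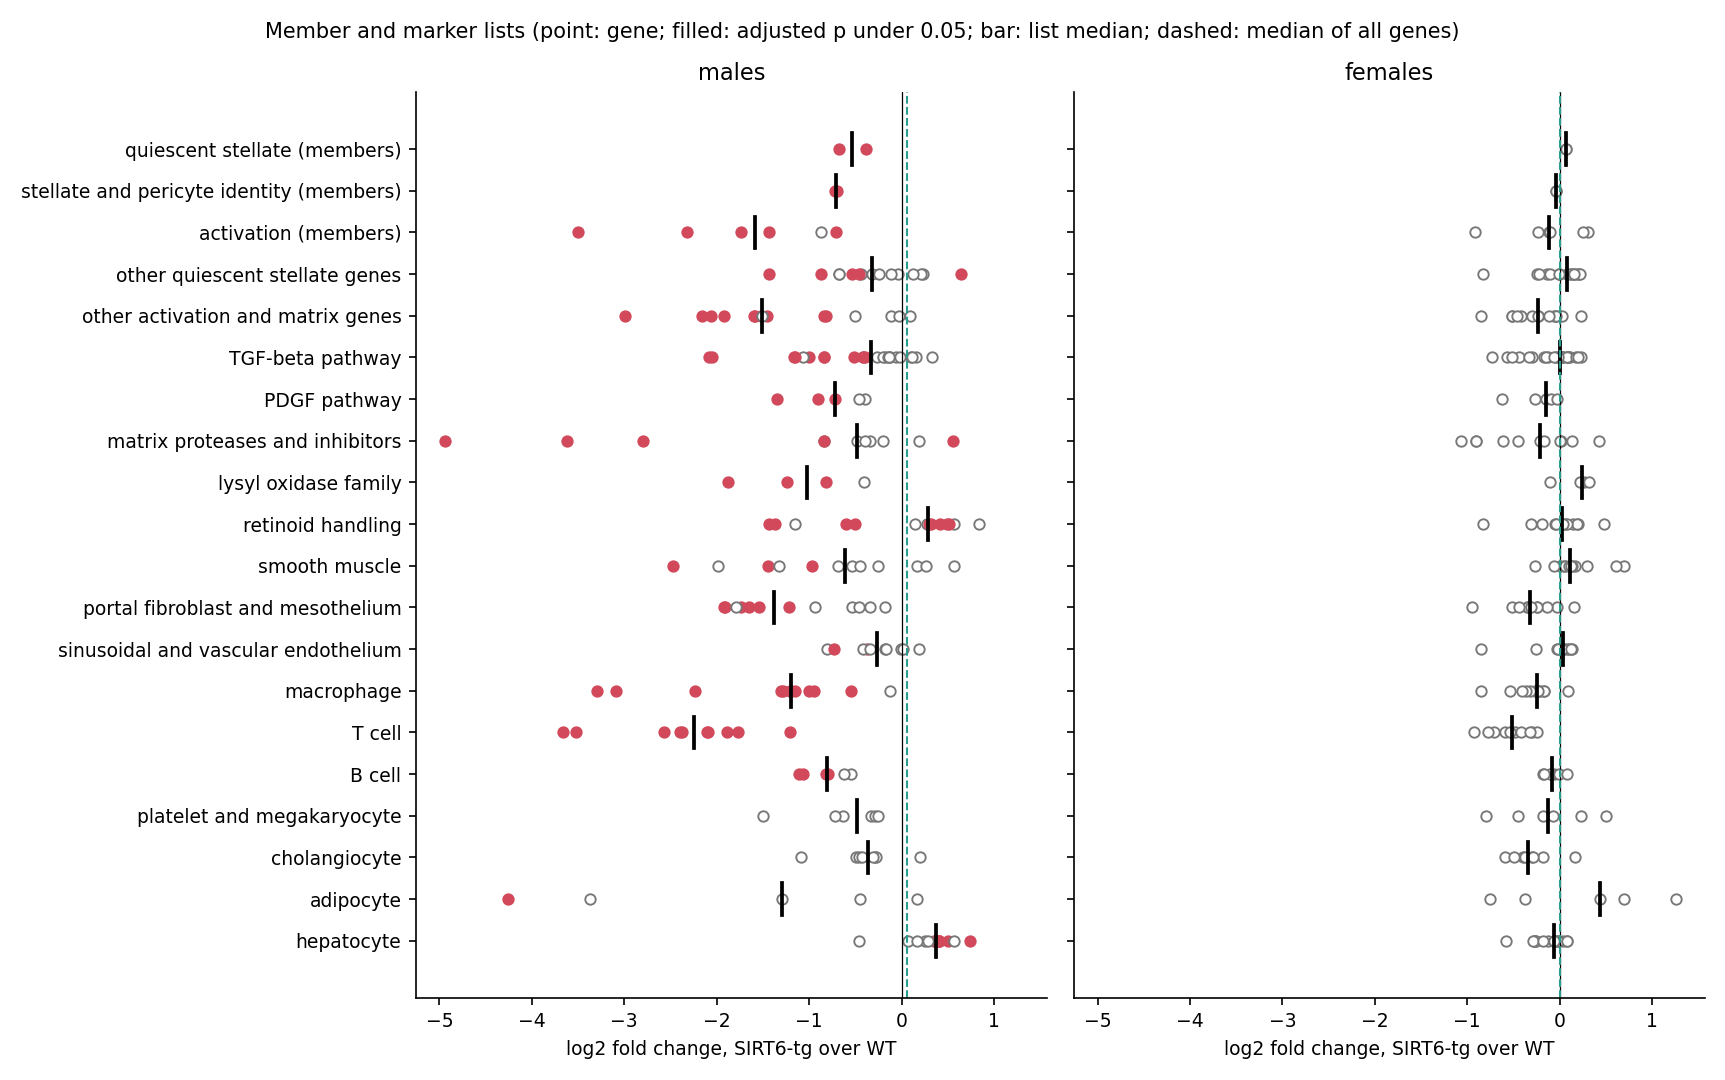
Log2 fold changes of SIRT6-tg over WT for the genes of each list in males (left) and females (right), with 1 point per gene, filled where the adjusted p was under 0.05, a bar at the list median and a dashed line at the median of all genes. In males the list medians lie to the left of 0 except those of the retinoid and hepatocyte lists. The T cell, activation, matrix, portal fibroblast and mesothelium, adipocyte and macrophage medians lie furthest left. No point is filled in females.

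Several members are also expressed outside stellate cells, so markers of other cells are given beside them for the male comparison. The 10 T cell genes were all lower in male SIRT6-tg liver (median -2.24) and summed to 17.7 to 49.3 CPM in male WT, 5.34 to 8.34 in male SIRT6-tg, 6.73 to 19.3 in female WT and 7.04 to 14.7 CPM in female SIRT6-tg liver. The T cell genes with the lowest adjusted p were Cd8a (-3.67, SE 0.31, adjusted p = 5.85e-09) and Cd3e (-2.57, SE 0.27, adjusted p = 5.92e-08). Of 12 macrophage genes 11 were lower (median -1.20), led by Itgax (-3.09, SE 0.26, adjusted p = 5.16e-09), Cx3cr1 (-2.24, SE 0.25, adjusted p = 1.61e-07) and Marco (-3.29, SE 0.43, adjusted p = 2.46e-06), and their sum was 494 to 1526 CPM in male WT, 427 to 701 in male SIRT6-tg, 561 to 1121 in female WT and 451 to 1070 CPM in female SIRT6-tg liver. Of 6 B cell genes 4 were lower, among them Blk (-0.80, SE 0.23, adjusted p = 0.0115) and Cd79a (-0.82, SE 0.24, adjusted p = 0.0156). A difference of genotype effects between males and females was called for 7 of the T cell and 4 of the macrophage genes, each with the lower effect in males and with the 5 named T cell and macrophage genes among them, and for no B cell gene. The T cell sum was highest in male WT 6 and the macrophage sum in male WT 7. These lists move with Timp1 and Tgfb1 across the male groups, and their part in those results was not tested.

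Some markers of other mesenchymal cells were lower in males along with Acta2 and Mmp2, where 11.0% of all genes tested were lower. Of 12 portal fibroblast and mesothelial genes 6 were lower in males (median -1.38), led by Eln (-1.92, SE 0.23, adjusted p = 2.81e-07), Thy1 (-1.55, SE 0.22, adjusted p = 5.87e-06) and Cd34 (-1.22, SE 0.21, adjusted p = 7.09e-05), and their sum was 18.8 to 49.4 CPM in male WT, 13.7 to 16.9 in male SIRT6-tg, 17.9 to 52.01 in female WT and 14.9 to 29.7 CPM in female SIRT6-tg liver. The 3 libraries with the highest sums were female WT 1, male WT 3 and male WT 2, which were also among the 4 with the highest Acta2. Of 12 smooth muscle genes 3 were lower (median -0.61): Mustn1 (-0.97, SE 0.23, adjusted p = 0.00275), Myh11 (-1.45, SE 0.41, adjusted p = 0.0116) and Actg2 (-2.48, SE 0.73, adjusted p = 0.0151). The smooth muscle sum, dominated by widely expressed Cald1, did not follow Acta2 and ran from 369 to 564 CPM in male WT, 434 to 728 in male SIRT6-tg, 403 to 493 in female WT and 458 to 550 CPM in female SIRT6-tg liver. The part of both cell types in the Acta2 and Mmp2 values, and in those of Tagln, which did not pass the test, was not tested.

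The counts of the remaining lists stand beside 11.0% lower and 9.68% higher among all genes tested in males. Of 10 endothelial genes 2 were lower in males, Vwf (-0.73, SE 0.16, adjusted p = 0.00145) and Pecam1 (-0.37, SE 0.14, adjusted p = 0.0496), with a list median of -0.26 and sums of 310 to 430 CPM in male WT and 298 to 374 CPM in male SIRT6-tg liver. None of 8 cholangiocyte genes (median -0.37, including Spp1 at -0.31, SE 0.23) and none of 6 platelet genes (median -0.48, including Pf4 at -0.63, SE 0.29, and Ppbp at -0.33, SE 0.27) passed the test. Of 5 adipocyte genes tested (median -1.30), Plin1 was lower (-4.26, SE 1.26, adjusted p = 0.0153), with 1.95 CPM in male WT 3 and at most 0.0818 CPM in each of the other 27 libraries. Of 15 hepatocyte genes 8 were higher and none lower in male SIRT6-tg liver (median 0.37), led by Serpinc1 (0.39, SE 0.07, adjusted p = 0.000154), F2 (0.40, SE 0.10, adjusted p = 0.00308) and Fgb (0.40, SE 0.11, adjusted p = 0.00973). The hepatocyte sum was 128000 to 165900 CPM in male WT and 151500 to 206800 CPM in male SIRT6-tg liver, and the part of this shift in the members' lower values was not tested.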

How the data were processed

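Liver RNA was sequenced in 28 libraries, 4 groups of 7, by the authors as single-end reads from libraries made with a kit that does not mark strand. Per the methods and the submitters' processing notes, reads were aligned with STAR 2.5.0a to mm10 and uniquely mapped reads were counted per Gencode gene with HTSeq-count. The deposited values are whole-number counts per gene, not normalized, with between 18758863 and 35393069 counts per library. Symbols and exon lengths came from Gencode vM21, and 49326 of 49585 features had a symbol.

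The 21583 genes whose mean count, after DESeq2 size factors, reached 0.5 were tested with edgeR 4.0.16 (R 4.3.3): TMM factors, all 28 libraries in 1 robust quasi-likelihood fit, 4 contrasts, and Benjamini-Hochberg adjustment over all genes tested, with adjusted p under 0.05 as a call. CPM used TMM factors; log2 CPM used a prior count of 2. TMM factors were 1.06 to 1.17 in male WT and 0.821 to 0.993 in male SIRT6-tg libraries, so library composition differed between these groups. Intervals are the fold change plus or minus 1.96 SE. No libraries were alike within sampling noise. The procedure was tested on simulated data. The members and the gene lists were chosen with earlier results of these data known, so that a list's direction is not independent evidence. Named genes were all members and, from each list, up to 3 higher and 3 lower genes of the male comparison with the lowest adjusted p, those with a called sex difference, or the 2 with the highest level per length where none was called. A few genes that this rule picks are not reported here. Alternatives were other scalings (RLE, upper quartile, library size alone), other filters, DESeq2 1.42.0, each sex alone, a replicate block and leaving out each library. Promoter windows came from RefSeq GRCm38.p6 and matched 6 of the 10 members.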

Additional observations from a re-analysis of the deposited data

Results flagged for a closer look

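Tagln in female WT 1 lay at 1.64 CPM, apart from the other 6 female WT libraries at 0.459 to 0.703 CPM. Its gap to the nearest library was 0.677 of the group's range on the log2 scale, above Dixon's 95% critical value for 7 samples. This was the 1 case found among 40 checks of a gene in a group, where chance gives about 1 in 20. The same library held the highest Acta2 of its group (13.0 CPM) and the highest Sirt6 of all WT livers (6.22 CPM).

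The genotype effect differed between males and females, by the test of the difference in edgeR, for Pdgfrb (-0.68, adjusted p = 0.00957), Lox (-2.58, adjusted p = 0.0047) and Mmp2 (-1.33, adjusted p = 0.00167). Every male SIRT6-tg library had more Sirt6 than any female one, so that sex and transgene level cannot be told apart.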

How the results depend on the processing

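In the male comparison the count of members called lower was 8 to 10 over 8 other settings and 8 to 9 when 1 library was left out, and none was called higher; 3591 to 4399 of all genes were called over those settings against 4467. In females 0 members were called under every setting and with every library left out, while the count over all genes was 42 with DESeq2, 2 with each sex fitted alone and 3 to 16 with 1 library left out, against 6 (10 without female WT 1 or 4, 16, 3, 3 and 14 without female SIRT6-tg 2, 3, 4 and 7). For the difference between the sexes, 9 members were called with library size alone, 7 with DESeq2 and 3 to 5 with 1 library left out (5 without male WT 1 or 2, male SIRT6-tg 1, female WT 1 or female SIRT6-tg 2), and library size alone called 1863 genes in all against 1089. For male against female WT, 6 members were called with library size alone, 5 with DESeq2 and 2 to 6 with 1 library left out (2 without male WT 4 or 7), and library size alone called 4212 genes in all against 2669. Library size alone turned the small WT sex differences of Lrat (0.056) and Reln (0.1008) positive. The cause of these shifts was not tested.

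With 1 library left out, female log2 fold changes that did not pass the test changed sign for Lrat (-0.0323 to 0.17), Reln (-0.0119 to 0.16), Des (-0.17 to 0.0517), Acta2 (-0.26 to 0.77), Tagln (-0.49 to 0.10) and Mmp2 (-0.21 to 0.0275). Counting Des with Lrat and Reln moved the activation minus quiescence difference to -3.20 in male WT, -4.06 in male SIRT6-tg, -3.996 in female WT and -4.12 in female SIRT6-tg liver, because the lower Des enters the quiescence mean.

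Replicate numbers are shared between groups, and within each sex the deviations of libraries with the same number correlated between -0.28 and 0.27. Libraries with different numbers were not compared, so whether the numbers mark a pairing is not settled by these values. The column labels also carry running sample numbers, which skip a number within every group except male WT. Equal replicate numbers therefore need not mark equal places in that order, and the block fit shares this limit. A fit with the replicate number as a block called 4209 genes in the male comparison, with 9 members lower, 6 in the female one, 989 for the difference between the sexes and 2474 between the WT groups, and it changed no count of members called in these comparisons. Depth limits Timp1 and Lox most, with as few as 1 and 2 reads per library.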
